A study of Rattus norvegicus with 6 samples.

Results

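The genes described here belong to the Slc1, Slc3, Slc6, Slc7, Slc36, Slc38 and Slc43 families, the membrane carriers that move amino acids, and some related small molecules, into and out of cells. They were measured in RK3E, a rat kidney epithelial cell line immortalised with an adenovirus oncogene. The members were all genes with a symbol of these families on the array, with the exception of Slc7a5 and Slc7a11, and each gene was represented by its probe set of highest mean signal. This gave 51 genes out of 14217 single-symbol genes on the array. Of these, 50 are carriers or their subunits. The other, Slc7a6os, is named for its place on the opposite strand from Slc7a6 and is not a carrier.

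The comparison the study states was between RK3E cells transformed by GLI1, a transcription factor through which Hedgehog signalling acts on genes, and parental RK3E cells. On 4 arrays the RNA came from cells that had been transfected with a GLI1 expression construct with a lipid reagent and had grown out as foci, which were isolated and maintained. Of these 4, 1 array was labelled clone I, 2 were labelled clone II, and 1 carried no clone name. Values of the GLI1 arrays are given below in the order no clone name, clone I, clone II replicate 1, clone II replicate 2, and those of the parental arrays as replicates 1 and 2. On the other 2 arrays the RNA came from parental RK3E cells. All cells were kept in DMEM with 10% FBS. The labels do not name a promoter for the construct, nor an empty-vector control. The 2 clone II arrays share a clone, and the p-values measure the spread between these arrays only.

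Carriers of these families divide the work of amino acid supply. Sodium-coupled carriers of the Slc1, Slc6 and Slc38 families can concentrate their substrates inside the cell, the Slc7 light chains exchange amino acids across the membrane in pairs with a heavy chain of the Slc3 family, and Slc43 carriers let neutral amino acids pass down their gradient. The Slc6 family also holds the plasma membrane carriers for dopamine, serotonin, glycine, taurine and creatine. In kidney, many of the same families recover amino acids from the filtrate.

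Gli1, the check of the labels, had a log2 signal of 13.15, 11.71, 11.77 and 12.17 on the GLI1 arrays, against 5.17 and 6.50 on the parental arrays. The log2 difference was 6.36 (SE 0.49, limma adjusted p = 0.000159). Both parental readings were below the filter level of 8.33. The gene was thus tested through its GLI1 signal alone, and its call and the size of the difference are a description. Median signals per array lay between 568 and 691 in GLI1 cells and were 647 and 696 in parental cells. The 3'/5' signal ratio of GAPDH, a measure of RNA integrity, ran from 1.39 to 7.52 in GLI1 cells and was 3.66 and 1.43 in parental cells, with the highest values on clone II replicate 1 and parental replicate 1. Of 5 epithelial markers, Krt8 and Epcam lay above the signal filter and Cdh1, Krt18 and Krt19 below it, with a summed linear signal of 1254 to 8508 in GLI1 cells and 1772 to 2259 in parental cells and 0 called. The summed linear signal of 6 fibroblast markers was 7351 to 15567 in GLI1 cells and 118156 to 131668 in parental cells. Of the 5 that were tested, 3 fell (Col1a1, Col3a1 and Ogn). Col1a1 read 15.21 and 15.11 and Col3a1 16.11 and 15.93 on the parental arrays, and these collagens weighed most in the parental sum. Fbln1 (log2 0.13, limma adjusted p = 0.887) and Pdgfra (-0.06, 0.95) did not pass, and Dcn was below the filter. The sum over 6 neural markers was 2930 to 6071 in GLI1 cells and 6686 to 7174 in parental cells. Of the 4 tested, 2 fell (Map2 and Nes), and Tubb3 (log2 -0.96) and Rbfox3 (log2 2.52) did not pass. Rbfox3 read 11.69, 10.40, 9.86 and 5.10 on the GLI1 arrays, against 7.32 and 6.17 on the parental arrays. The sum over 5 proximal tubule markers was 1768 to 2232 in GLI1 cells and 2427 to 2810 in parental cells, with 1 of 2 tested fallen. All 4 endothelial and 5 immune markers were below the filter. No marker signal was exactly 0. The part of these shifts in the results below was not tested.

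Promoter sequence was examined for the members present in a table of RefSeq promoters, which gave 250 bases before to 50 bases after the gene start on build GRCr8 for 39 of the 51 genes. Slc7a2, Slc7a3, Slc7a4, Slc1a1, Slc1a5, Slc7a13, Slc6a13, Slc6a2, Slc6a4, Slc6a15, Slc38a10 and Slc38a3 were not matched. Searched on both strands, the core of the element through which amino acid shortage acts on many genes, TGATGNAA, stood in 3 of 23 tested members and in 3.98% of all 33469 promoters. It was present in Slc7a1, which rose, and in Slc1a4 and Slc38a1, which did not pass the test. These windows are shown because they hold the match, which is in capitals.
Slc7a1 (chr12:11664238-11664537, plus strand): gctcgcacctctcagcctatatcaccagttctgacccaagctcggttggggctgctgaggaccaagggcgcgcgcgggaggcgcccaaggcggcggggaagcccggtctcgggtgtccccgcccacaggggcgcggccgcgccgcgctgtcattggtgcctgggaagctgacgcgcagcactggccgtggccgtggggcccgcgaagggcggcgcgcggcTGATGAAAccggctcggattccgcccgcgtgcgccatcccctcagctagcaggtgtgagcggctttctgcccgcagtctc
Slc1a4 (chr14:98761513-98761812, minus strand): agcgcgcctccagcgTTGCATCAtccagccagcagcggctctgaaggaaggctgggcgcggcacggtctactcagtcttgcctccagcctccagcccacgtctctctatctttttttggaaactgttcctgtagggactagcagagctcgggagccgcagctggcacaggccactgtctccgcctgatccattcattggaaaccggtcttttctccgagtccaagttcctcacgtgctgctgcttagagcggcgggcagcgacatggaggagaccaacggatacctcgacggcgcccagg
Slc38a1 (chr7:129681352-129681651, minus strand): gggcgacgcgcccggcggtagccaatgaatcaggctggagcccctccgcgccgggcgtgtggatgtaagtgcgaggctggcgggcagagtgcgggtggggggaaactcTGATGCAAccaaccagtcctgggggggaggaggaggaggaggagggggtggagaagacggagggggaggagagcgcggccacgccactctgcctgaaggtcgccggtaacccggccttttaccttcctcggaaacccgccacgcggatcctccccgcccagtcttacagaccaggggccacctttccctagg
Counted from the gene start, the match began at position -30 in Slc7a1, -235 in Slc1a4 and -142 in Slc38a1, and in Slc1a4 it lay on the opposite strand. The 9-base GLI site GACCACCCA was in 0 of the 23 windows, against 0.385% of all promoters. The E-box CACGTG was in 3 of them, Slc43a1, Slc1a4 and Slc38a7, none of which passed the test, against 6.42% of all promoters. These letters are a description of the windows and not evidence of binding. A site as rare as the GLI site would seldom be met in 23 windows, so its absence shows nothing about these genes. Of the 10 called members, 7 had a window.

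Of the 51 members, 28 had a mean log2 signal above the 40th percentile of the array (8.33) and were tested with limma, and 23 were not tested. At a Benjamini-Hochberg adjusted p under 0.05 over all 18625 tested probe sets, 6 members rose in GLI1 cells (Slc6a3, Slc6a15, Slc38a4, Slc6a9, Slc7a1 and Slc1a5), 4 fell (Slc6a4, Slc43a2, Slc6a8 and Slc6a6) and 18 did not pass. These 10 were 35.7% of the tested members, where 15.6% of all 10240 tested genes, and 13.1% of all tested probe sets, were called. Among all tested genes 7.80% rose and 7.75% fell, and among all tested probe sets 5.84% rose and 7.25% fell. The 4 GLI1 arrays lay wholly above both parental arrays for 8 tested members and wholly below for 7, which is 53.6% of them, against 43.2% of all tested genes and 39.2% of all tested probe sets. The members went both ways, with a median log2 difference of 0.05, against 0.07 for all tested genes, while the median size of the difference regardless of direction was 0.74, against 0.39. The arrays carry RNA of whole cultures, so that fewer cells with a transcript and less of it per cell cannot be told apart. Slc6a4 entered the test through its parental signal alone and Slc6a7 through its GLI1 signal alone, and the counts are therefore a description. The members nearest the filter were Slc7a4 below it (mean log2 8.25) and Slc6a7 above it (8.47), neither of which was called.

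The counts depended on both parental arrays. Without parental replicate 1, 2 members rose and 1 fell, and 2.74% of all tested probe sets were called. Without parental replicate 2 the counts were 1 and 2, beside 3.74% of all. With both arrays of highest GAPDH ratio left out (replicate 1 of clone II and of the parental cells), 2 rose and 0 fell beside 1.68% of all, and the 2 were Slc6a15 and Slc38a4. Leaving out clone I, 4 rose and 3 fell, beside 8.05% of all tested probe sets called. In each of these fits the 10 called members kept their sign.

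**Figure D1:**
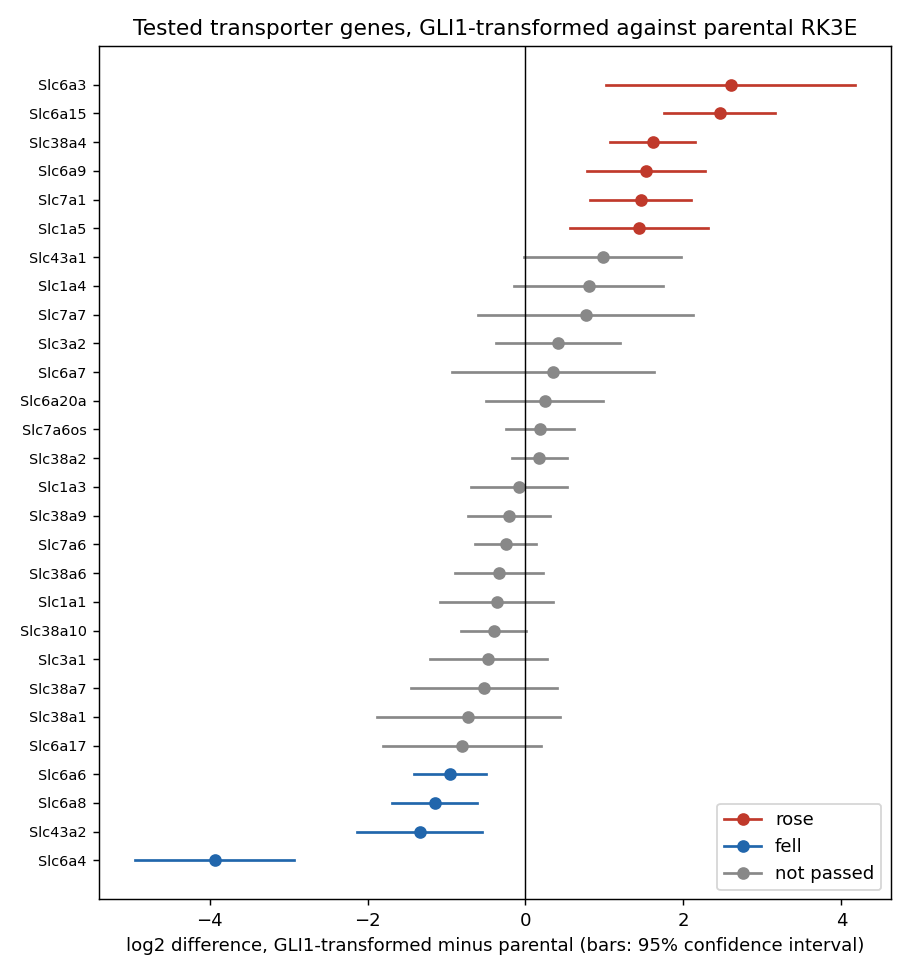
Log2 difference between GLI1-transformed (4 arrays) and parental RK3E cells (2 arrays) for the 28 tested genes of the transporter families, with bars for the 95% confidence interval of limma and colours for the call. The 6 risen genes lie between 1.44 and 2.60 and the 4 fallen genes between -3.94 and -0.95.

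The monoamine carriers of the Slc6 family went in opposite directions. Slc6a4, the serotonin transporter, had a log2 signal of 6.79, 7.78, 7.39 and 8.23 on the GLI1 arrays, against 11.66 and 11.31 on the parental arrays. All GLI1 arrays were at or below the filter level of 8.33 and both parental arrays stood well above it, with no overlap. GLI1 cells averaged 7.55 ± 0.61 (SD, n = 4), against 11.49 ± 0.25 in parental cells (SD, n = 2), which measured as a 15.3-fold fall (log2 -3.94, SE 0.45, limma adjusted p = 0.000992). With the filter level in place of the GLI1 signals, the parental mean was at least 8.92-fold higher. Because the gene was tested through its parental signal alone, its call is a description, and 9 of the other 27 tested members were called (33.3%). The call held with any 1 array left out, at log2 differences from -4.16 to -3.68, and was lost only without both arrays of highest GAPDH ratio (adjusted p = 0.0591, within a range of 0.000666 to 0.0591 over 14 alternatives).

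Slc6a3, the dopamine transporter, had log2 signals of 12.99, 10.74, 10.95 and 9.91 on the GLI1 arrays, against 8.70 and 8.40 on the parental arrays. Every GLI1 array was above both parental arrays, and the array without a clone name was the highest of the 4. Mean log2 signal was 11.15 ± 1.31 in GLI1 cells (SD, n = 4), against 8.55 ± 0.22 in parental cells (SD, n = 2), a 6.05-fold rise (log2 2.60, SE 0.69, limma adjusted p = 0.0408). A dimmer probe set of Slc6a3, below the filter, read 8.92, 5.29, 7.70 and 7.14 on the GLI1 arrays, against 5.11 and 5.46 on the parental arrays, so that clone I did not stand apart there. The rise of the brighter probe set lost its call without clone I (log2 2.73, adjusted p = 0.0724) or clone II replicate 1 (2.66, 0.0579), and without the first (2.75, 0.19) or second parental array (2.44, 0.198). It also lost it with no filter (0.0512) or no intensity trend (0.0718), and its adjusted p ran from 0.0105 to 0.253 over 15 alternatives.

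Slc6a9, a glycine transporter, read 12.44, 11.27, 12.30 and 11.93 on the GLI1 arrays, against 10.23 and 10.68 on the parental arrays. The groups did not overlap, and clone I was the GLI1 array nearest to the parental ones. GLI1 cells averaged 11.98 ± 0.52 (SD, n = 4), against 10.46 ± 0.32 in parental cells (SD, n = 2), and the gene rose 2.88-fold (log2 1.53, SE 0.33, limma adjusted p = 0.0186). A further tested probe set of the gene rose as well, by 1.87 (SE 0.37, limma adjusted p = 0.0126), with 11.22, 10.05, 10.74 and 10.98 in GLI1 cells, against 8.54 and 9.23 in parental cells. A probe set below the filter was also higher on every GLI1 array, at 9.39, 8.76, 7.63 and 10.16, against 5.79 and 6.29 on the parental arrays. The call was lost without parental replicate 1 (log2 1.30, adjusted p = 0.18) or 2 (1.75, 0.0741), and the adjusted p ran from 0.00724 to 0.27 over 16 alternatives. The carriers of noradrenaline (Slc6a2), GABA (Slc6a11 and Slc6a13) and the neuronal glycine carrier Slc6a5 were below the filter and not tested. Of the 7 measured genes of this monoamine, GABA and glycine group 3 were tested, with Slc6a4 tested only through its parental signal, and these 3 were called (2 risen, 1 fallen), where 15.6% of all tested genes were.

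**Figure D2:**
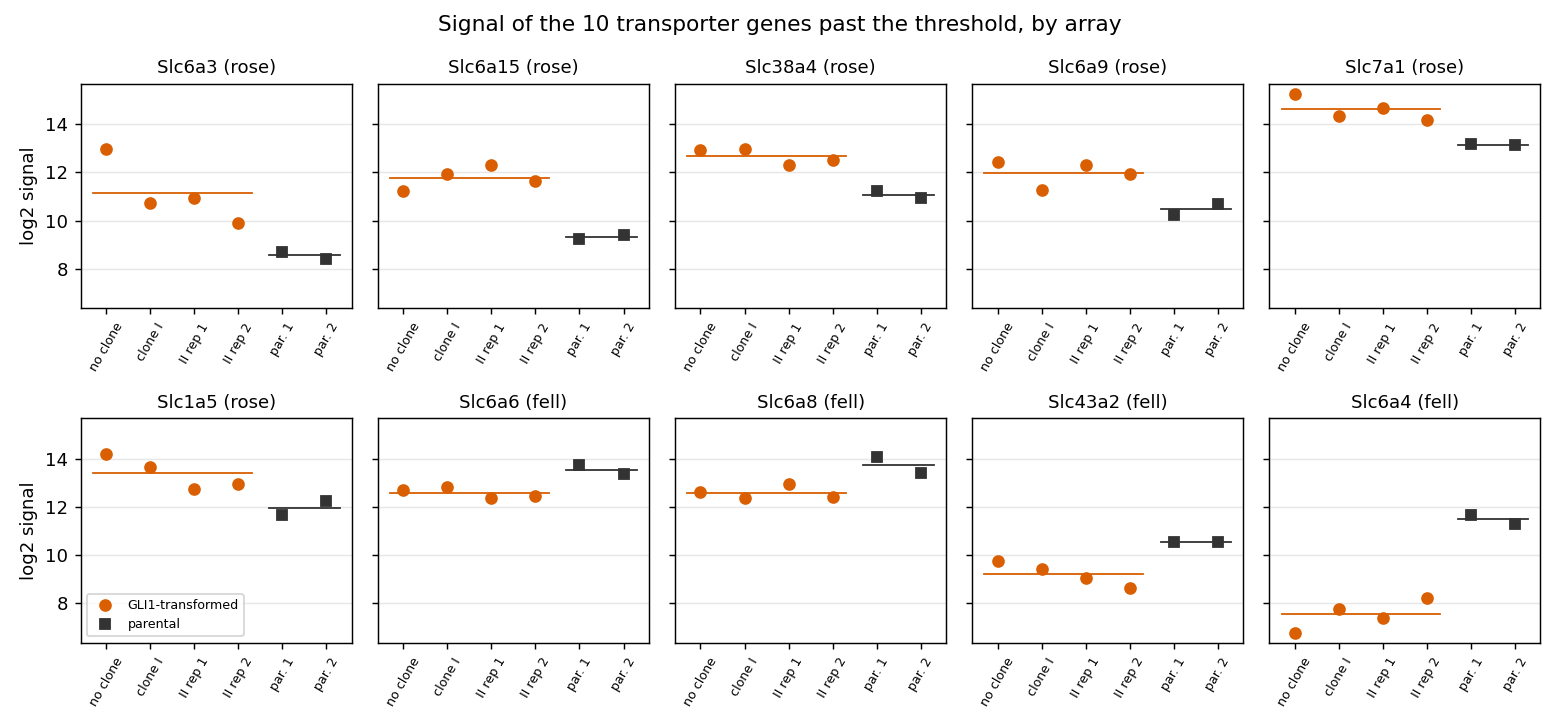
Log2 signal of the 10 genes of the transporter families past the threshold on each array, with GLI1-transformed cells as circles, parental cells as squares and lines at the group means. In every panel the 4 GLI1 arrays lie on 1 side of both parental arrays, and Slc6a3 spreads most among the GLI1 arrays (9.91 to 12.99).

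The Slc6 carriers of creatine and taurine both fell in GLI1 cells. Slc6a8, the creatine transporter, had log2 signals of 12.62, 12.37, 12.96 and 12.44 on the GLI1 arrays, against 14.07 and 13.43 on the parental arrays. All GLI1 arrays lay below both parental arrays, which lay further apart than any pair of GLI1 arrays. Mean log2 signal was 12.60 ± 0.26 in GLI1 cells (SD, n = 4), against 13.75 ± 0.45 in parental cells (SD, n = 2), a 2.22-fold fall (log2 -1.15, SE 0.24, limma adjusted p = 0.0155). Slc6a6, the taurine transporter, read 12.69, 12.83, 12.38 and 12.46 on the GLI1 arrays, against 13.73 and 13.36 on the parental arrays. There was again no overlap, and the fall was 1.94-fold (log2 -0.95, SE 0.20, limma adjusted p = 0.0165).

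A second tested probe set of Slc6a8 fell by 0.998 on the log2 scale (SE 0.24, limma adjusted p = 0.0282), and that of Slc6a6 fell by 1.15 (SE 0.27, limma adjusted p = 0.0254). These were the only 2 members of the group measured. The call of Slc6a8 was lost without parental replicate 1 (log2 -0.84, adjusted p = 0.19; range 0.0059 to 0.19 over 16 alternatives). That of Slc6a6 was lost without parental replicate 1 (-0.77, 0.192) or 2 (-1.14, 0.0602), and with each array centred on its median (-0.79, 0.0549), in a range of 0.014 to 0.282.

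Of the Slc6 carriers of neutral amino acids, Slc6a15 stood out by its rise. Slc6a15, a sodium-dependent carrier of branched-chain amino acids and proline best known in brain, read 11.21, 11.95, 12.32 and 11.63 on the GLI1 arrays, against 9.23 and 9.41 on the parental arrays. Every GLI1 array was far above both parental arrays, and the array without a clone name was the lowest of the 4. GLI1 cells averaged 11.78 ± 0.47 (SD, n = 4), against 9.32 ± 0.12 in parental cells (SD, n = 2), a 5.49-fold rise (log2 2.46, SE 0.31, limma adjusted p = 0.00164). It kept its call under all 15 alternatives, with adjusted p from 0.000724 to 0.046. The other 3 tested genes of this group did not pass. Slc6a17, a vesicular carrier in neurons, gave a log2 difference of -0.80 (95% CI -1.80 to 0.19, limma adjusted p = 0.268), with clone I at 10.46 and the other 5 arrays between 11.78 and 12.69. Slc6a20a, a proline and imino acid carrier, gave 0.24 (95% CI -0.51 to 0.99, limma adjusted p = 0.685) and changed sign without parental replicate 1 (-0.18). Slc6a7, a proline carrier, also did not pass. Slc6a14, Slc6a18 and Slc6a20b were not tested.

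Among the Slc7 carriers of cationic amino acids, Slc7a1, the widely expressed carrier of arginine, lysine and ornithine whose promoter is shown above, was the only 1 of 5 above the filter. Its log2 signal was 15.26, 14.33, 14.69 and 14.17 on the GLI1 arrays, against 13.17 and 13.14 on the parental arrays. All GLI1 arrays were higher than both parental arrays, which were nearly equal. Mean log2 signal was 14.61 ± 0.48 in GLI1 cells (SD, n = 4), against 13.15 ± 0.03 in parental cells (SD, n = 2), a 2.75-fold rise (log2 1.46, SE 0.28, limma adjusted p = 0.0111). A second tested probe set rose by 1.24 (SE 0.30, limma adjusted p = 0.0294). The call was lost without parental replicate 1 (log2 1.48, adjusted p = 0.0997) or 2 (1.44, 0.087), and the adjusted p ran from 0.00338 to 0.165 over 16 alternatives. Slc7a2, Slc7a3, Slc7a4 and Slc7a14 were not tested.

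The heteromeric carriers pair a heavy chain, which brings the complex to the cell surface, with a light chain that carries out transport. Neither heavy chain passed the test. Slc3a2, the partner of most light chains, read 15.15, 13.96, 14.42 and 13.74 on the GLI1 arrays, against 14.06 and 13.74 on the parental arrays. The groups overlapped, and the log2 difference was 0.42 (95% CI -0.37 to 1.20, limma adjusted p = 0.48). Slc3a1, the partner of the renal cystine carrier, gave -0.47 (95% CI -1.21 to 0.27, limma adjusted p = 0.385).

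Of 7 light chains only Slc7a6 and Slc7a7, which exchange cationic for neutral amino acids, were tested, and neither passed. The log2 difference of Slc7a6 was -0.25 (95% CI -0.64 to 0.14, limma adjusted p = 0.375). Slc7a7 read 10.76, 9.76, 9.20 and 8.23 on the GLI1 arrays, against 8.69 and 8.77 on the parental arrays, so that 3 GLI1 arrays were above the parental ones and 1 below (log2 0.76, 95% CI -0.60 to 2.12, limma adjusted p = 0.45). Slc7a8, Slc7a9, Slc7a10, Slc7a12 and Slc7a13 were not tested. For Slc7a6os, matched by its symbol alone, the difference was 0.18 (95% CI -0.25 to 0.62, limma adjusted p = 0.579). Of the light chains outside the set, Slc7a11, the cystine and glutamate exchanger, rose by 1.94 (SE 0.43, limma adjusted p = 0.0199; lost when either parental array was left out, 1.96 with 0.139 for replicate 1 and 1.92 with 0.12 for replicate 2, in a range of 0.00605 to 0.2). Slc7a5, the large neutral amino acid exchanger, gave 1.11 (SE 0.48, limma adjusted p = 0.159).

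In the Slc1 family, which holds the glutamate carriers and the neutral amino acid exchangers, Slc1a5 rose. Slc1a5, an exchanger that takes up glutamine, read 14.22, 13.66, 12.77 and 12.95 on the GLI1 arrays, against 11.66 and 12.27 on the parental arrays. No GLI1 array overlapped the parental ones, and both clone II arrays were below the other 2 GLI1 arrays. GLI1 cells averaged 13.40 ± 0.67 (SD, n = 4), against 11.96 ± 0.43 in parental cells (SD, n = 2), a 2.71-fold rise (log2 1.44, SE 0.39, limma adjusted p = 0.0421). The call was lost without clone I (1.35, adjusted p = 0.102) or either parental array (1.13, 0.3 for replicate 1; 1.74, 0.106 for replicate 2), and when no filter (0.0519), no intensity trend (0.0795) or a replicate block (0.0529) was used, in a range of 0.0162 to 0.3. Its relative Slc1a4, a carrier of alanine, serine and cysteine, was higher on each GLI1 array, at 12.83, 11.36, 11.74 and 11.20, against 11.15 and 10.81 on the parental arrays. Clone II replicate 2 exceeded the higher parental array by little, and the gene did not pass (log2 0.80, 95% CI -0.14 to 1.74, limma adjusted p = 0.243). Slc1a3, a glutamate and aspartate carrier first described in glia, gave -0.08 (95% CI -0.70 to 0.53, limma adjusted p = 0.874), with a sign that depended on the setting. Slc1a1 did not pass, and Slc1a2 and Slc1a6 were not tested.

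In the Slc38 family of sodium-coupled neutral amino acid carriers, 1 of 7 tested genes rose. Slc38a4, a carrier of small neutral amino acids that is abundant in liver, read 12.94, 12.96, 12.32 and 12.51 on the GLI1 arrays, against 11.22 and 10.92 on the parental arrays. The groups were well apart, with the lowest GLI1 array more than 1 log2 unit above the higher parental array. Mean log2 signal was 12.68 ± 0.32 in GLI1 cells (SD, n = 4), against 11.07 ± 0.21 in parental cells (SD, n = 2), a 3.05-fold rise (log2 1.61, SE 0.24, limma adjusted p = 0.00351). Of 15 alternatives only the fit without parental replicate 2 ended the call (log2 1.46, adjusted p = 0.051, in a range of 0.00217 to 0.051).

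The related carriers Slc38a2 and Slc38a10 did not pass. Slc38a2, a carrier of alanine and glutamine that cells raise when amino acids run short, gave a log2 difference of 0.18 (95% CI -0.17 to 0.53, limma adjusted p = 0.499), with 15.39 to 15.70 in GLI1 cells and 15.26 and 15.40 in parental cells. Slc38a10 gave -0.40 (95% CI -0.81 to 0.01, limma adjusted p = 0.181). Slc38a1, named after its values were seen, read 14.19, 13.26, 12.67 and 11.86 on the GLI1 arrays, against 13.78 and 13.66 on the parental arrays. The array without a clone name was above the parental arrays and the other 3 were below them (log2 -0.72, 95% CI -1.88 to 0.44, limma adjusted p = 0.395), and another tested probe set of the gene gave a difference of the opposite sign, 0.20 (limma adjusted p = 0.74). Slc38a6, Slc38a7 and Slc38a9 did not pass, and Slc38a3 and Slc38a5 were not tested.

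The Slc43 carriers lay on opposite sides of the parental level. Slc43a2, a facilitative carrier of leucine, phenylalanine and similar amino acids, read 9.75, 9.42, 9.05 and 8.66 on the GLI1 arrays, against 10.55 and 10.57 on the parental arrays. Every GLI1 array was below both parental arrays. GLI1 cells averaged 9.22 ± 0.47 (SD, n = 4), against 10.56 ± 0.01 in parental cells (SD, n = 2), a 2.53-fold fall (log2 -1.34, SE 0.35, limma adjusted p = 0.037). The call was lost under more alternatives than any other of the 10 calls. It was lost without clone I (log2 -1.41, limma adjusted p = 0.0662) or clone II replicate 1 (-1.28, 0.0664) or 2 (-1.15, 0.0563). The same held when all probe sets were tested (0.059) and with the clone II arrays averaged (-1.22, 0.0511). Further losses came without parental replicate 1 (log2 -1.35) or 2 (-1.33), and without the 2 arrays of highest GAPDH ratio (-1.29). The other tested probe set did not pass (-0.59, 0.373), and the adjusted p ran from 0.0165 to 0.373 over 15 alternatives. Slc43a1, a carrier of the same substrates, read 12.83, 11.79, 11.43 and 10.95 on the GLI1 arrays, against 10.73 and 10.80 on the parental arrays. All GLI1 arrays were higher, but the spread among them was wide (log2 0.98, 95% CI -0.02 to 1.97, limma adjusted p = 0.179). The proton-coupled carriers Slc36a1, Slc36a2 and Slc36a3 were all below the filter.

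**Figure D3:**
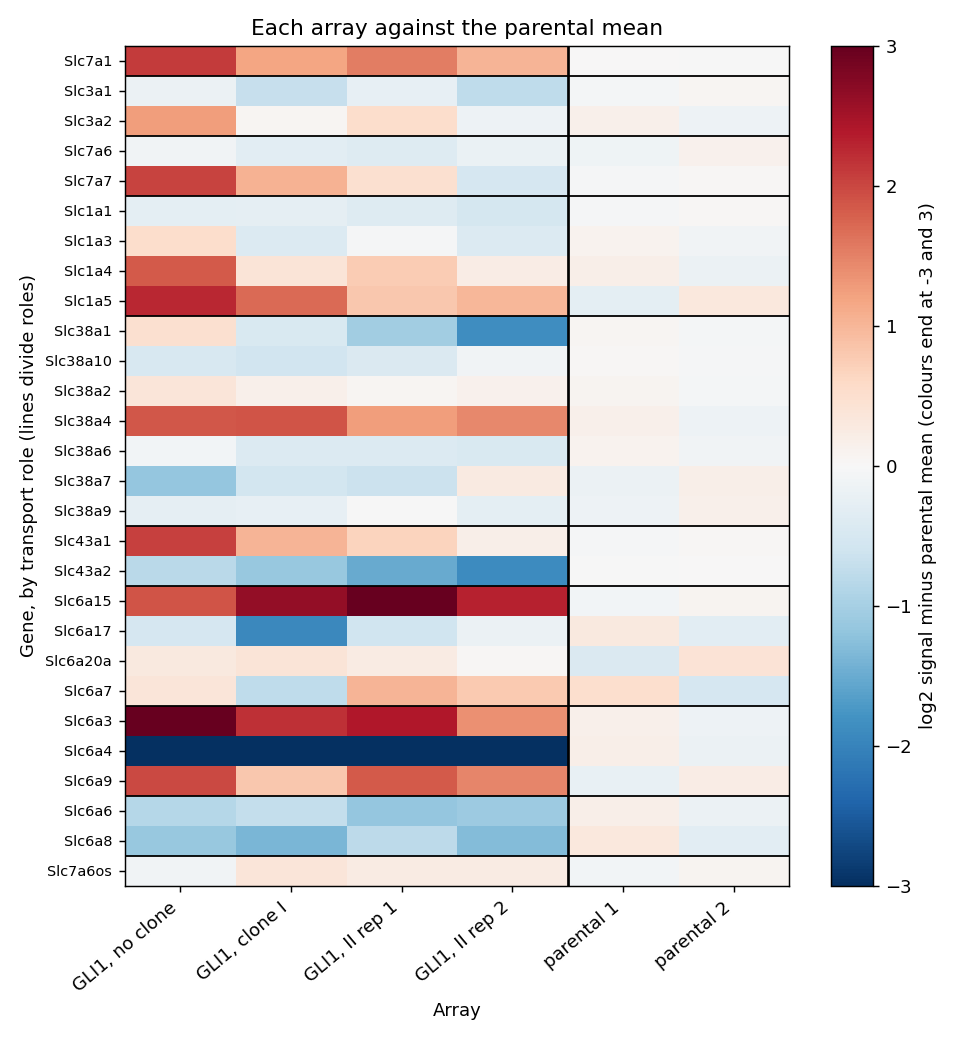
Log2 signal of each of the 28 tested genes on each array minus the mean of both parental arrays, with genes as rows grouped by transport role, arrays as columns and colours ending at -3 and 3. The array without a clone name is the highest GLI1 array in 15 of 28 rows, and Slc6a4 is below the parental mean by over 3 on all 4 GLI1 arrays.

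The 23 members below the filter had mean log2 signals of 4.44 to 8.25. Their groups overlapped with 3 exceptions, named after their values were seen, where 19.6% of the 3977 genes below the filter did not overlap; 3 of 23 is no more than that share. Slc38a5, a glutamine and histidine carrier, read 8.45, 6.01, 8.36 and 7.83 on the GLI1 arrays, against 8.71 and 8.80 on the parental arrays. Slc7a4 read 7.94, 8.05, 7.84 and 8.24 in GLI1 cells, against 8.67 and 8.76 in parental cells. Slc6a14, a carrier of neutral and cationic amino acids, read 5.54, 7.46, 6.38 and 6.78, against 4.77 and 3.20. With no filter, all 51 members were tested, 4 rose and 3 fell, and none of the 23 was called.

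The GLI1 arrays differed among themselves in a shared direction for many members. The array without a clone name was the highest of the 4 for 15 of 28 tested members (53.6%), against 31.4% of all tested genes, and it was also the highest for Slc7a5 and Slc7a11. Among the risen genes this held for Slc6a3, Slc6a9, Slc7a1 and Slc1a5, and not for Slc6a15 and Slc38a4. Gli1 signal was likewise highest on that array. Its median signal, 691, was above those of the other GLI1 arrays (568 to 580), and the part of this in the pattern was not tested. In the test of clone II against the other 2 GLI1 arrays, 0 of 28 members were called by limma (lowest adjusted p = 0.219), where 0.176% of all tested genes and 0.129% of all tested probe sets were. At an unadjusted p under 0.05 there were 5 (17.9%), against 10.3% of all tested genes and 8.65% of all tested probe sets, and clone II was lower in all 5: Slc38a1 by 1.46 on the log2 scale (SE 0.35), Slc7a7 by 1.54 (SE 0.49), Slc43a1 by 1.12 (SE 0.35), Slc1a5 by 1.08 (SE 0.28) and Slc38a4 by 0.53 (SE 0.21). Cell type markers differed between the same arrays. The summed linear signal of the 5 epithelial markers was 1254 to 1351 in clone II and 7286 to 8508 on the other GLI1 arrays, and of the 2 tested Krt8 was lower in clone II (log2 -3.17, SE 0.29, limma adjusted p = 0.0157) and Epcam did not pass (9.23 and 8.75 in clone II, 11.09 and 10.90 on the others, limma adjusted p = 0.106). That of the 6 fibroblast markers was 7351 to 9094 in clone II and 10599 to 15567 on the other GLI1 arrays. Of the 5 tested only Ogn passed, higher in clone II (3.98, SE 0.24, limma adjusted p = 0.00177). Col1a1 (-1.66), Col3a1 (-1.35), Pdgfra (-1.18) and Fbln1 (-1.41) were lower in clone II and did not pass. All 5 had an unadjusted limma p under 0.05. The 6 neural markers summed to 2930 to 3116 in clone II and 4469 to 6071 on the other GLI1 arrays, with 0 called by limma and 2 of 4 at an unadjusted p under 0.05. The part of these markers in the differences of the 5 transporter genes was not tested.

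Related genes, most of them of amino acid handling, were counted beside the carriers. A list of carriers outside these families covered mitochondrial, lysosomal, vesicular and peptide carriers, and also Slc16a10 and the nucleoside carrier Slc29a3. By limma 0 of its 12 tested genes were called, with 7 differences positive and 5 negative. At an unadjusted p under 0.05 there were 4 of the 12, near the 33.2% of all tested genes. When arrays were centred on their medians or quantile normalised, 2 rose and 0 fell. With the filter at the 60th percentile 0 rose and 1 fell, and with the clone II arrays averaged 1 rose and 1 fell. Without the array lacking a clone name 0 rose and 1 fell. Without clone II replicate 2, 1 rose and 1 fell, and without the intensity trend 1 rose and 0 fell. Slc16a10, named after its value was seen, did not pass (log2 1.24, limma adjusted p = 0.0539). Of 3 measured partner proteins of carriers, 2 were tested, Bsg and Arl6ip5, and 0 were called, with 0 at an unadjusted p under 0.05. In the machinery through which amino acids act on the growth kinase mTORC1, 5 of 30 tested genes rose and 0 fell (16.7% called). Of all tested genes, 15.6% were called in either direction and 7.80% rose. The share of the list was close to the first of these and above the second. Its median log2 difference was 0.23, against 0.07 for all tested genes. Rragd, a Rag GTPase of the lysosome surface, read 12.35, 12.86, 13.37 and 12.87 on the GLI1 arrays, against 10.66 and 10.39 on the parental arrays, with no overlap (5.06-fold, log2 2.34, SE 0.27, limma adjusted p = 0.00112). Sesn2, a leucine sensor, rose by 1.30 (SE 0.30, limma adjusted p = 0.0227), Wdr24 of the GATOR complex by 0.87 (SE 0.23, 0.0393) and Flcn, which acts on the Rag GTPases, by 0.70 (SE 0.19, 0.0399). The fifth was Seh1l, named after its value was seen (0.63, SE 0.18, 0.0487). Of the 5, only Rragd kept its call with either parental array left out, and Wdr24, Flcn and Seh1l also lost theirs without clone I or either clone II array.

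Among enzymes of glutamine, glutamate, proline, serine, arginine and branched-chain amino acids, 9 of 27 tested genes rose and 0 fell (33.3% called, against 15.6% of all tested genes, of which 7.80% rose; median log2 difference 0.42, against 0.07). Glul, which makes glutamine from glutamate, read 14.72, 15.17, 14.82 and 14.62 on the GLI1 arrays, against 12.08 and 12.44 on the parental arrays. Every GLI1 array was more than 2 log2 units above both parental arrays (5.95-fold, log2 2.57, SE 0.20, limma adjusted p = 0.000168). Bcat1, the cytosolic branched-chain aminotransferase, rose by 1.86 (SE 0.23, limma adjusted p = 0.00153), Psat1 of serine synthesis by 1.40 (SE 0.23, 0.00586) and the asparagine synthetase gene Asns by 1.66 (SE 0.28, 0.0061). Glul and Bcat1 kept their calls with any 1 array left out, and Psat1 and Asns lost theirs when either parental array was left out (adjusted p up to 0.0631 and 0.0678). Without parental replicate 1 the enzyme list held 2 risen genes and the mTORC1 list 1.

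**Figure D4:**
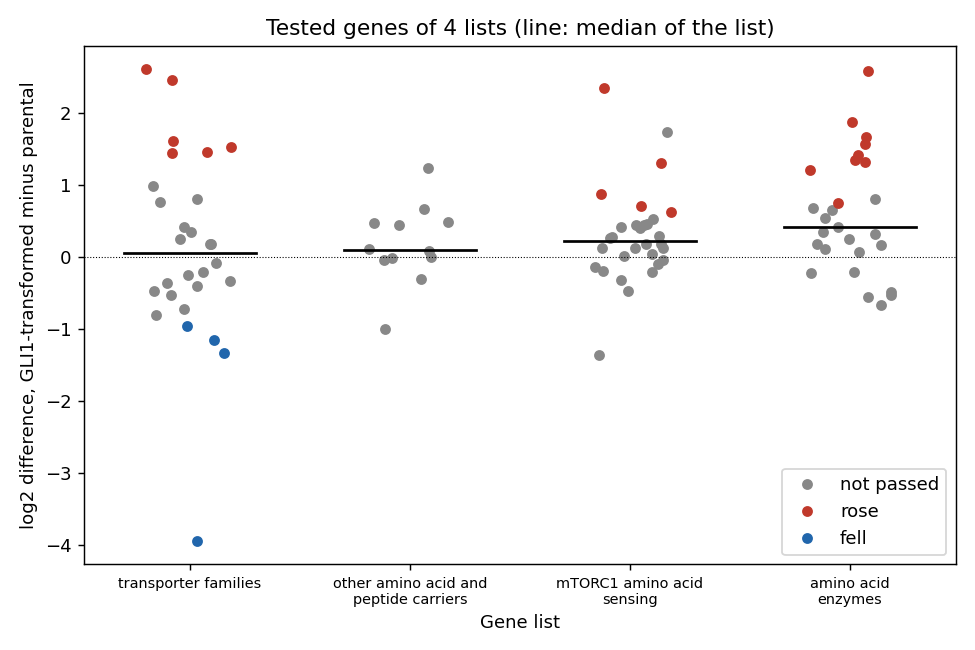
Log2 difference between GLI1-transformed and parental cells for the tested genes of the transporter families and 3 lists of related genes. Each gene is a point, colours mark the call and a line marks each median. Calls went both ways in the transporter families (6 risen, 4 fallen), whereas the 5 and 9 calls of the sensing and enzyme lists were all rises.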

How the data were processed

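RNA was measured on 1-colour Affymetrix rat arrays. The files hold 1 intensity per probe set and array on a linear scale, deposited by the authors. The submitters' processing notes name MAS5. Its version and the genome build are not given in the sources used here. The 2% trimmed mean was 2501 on every array, so the scaling was kept.

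Values were raised to at least 1 and converted to log2. Without 57 control probe sets of 31099, those with a mean above the 40th percentile were tested in limma 3.58.1 (R 4.3.3; lmFit, eBayes with an intensity trend). P-values were two-sided and adjusted by Benjamini-Hochberg over 18625 probe sets, with a threshold of 0.05 for "rose", "fell" and "called". GLI1 against parental left 4 residual degrees of freedom, and a 3-level model for clone II left 3. Signals of different probe sets are not comparable as levels, and the number of arrays limits the precision.

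Gene names came from a probe annotation table (20826 probe sets with 1 symbol, 436 with several, 9780 with none), and all 51 members were found by gene identifier in the RefSeq GRCr8 list. Named genes were all called members, up to 2 uncalled members of highest signal per role, partners of heteromeric carriers and up to 4 called genes per related list, with exceptions marked. The members and lists were chosen with earlier results of these data known. The procedure was checked on simulated data whose arrays were drawn independently of each other. That check could therefore not show the effect of the clone that the clone II arrays share.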

Additional observations from a re-analysis of the deposited data

Results flagged for a closer look

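In the 4 GLI1 arrays, the highest array stood apart from the others for 2 of the 28 tested members by Dixon's criterion, which chance meets in about 1 in 20 groups; 5.48% of all tested genes met it. Slc38a6 read 10.42 on the array without a clone name and 10.05 to 10.10 on the other GLI1 arrays, beside 10.61 and 10.39 in parental cells. Slc38a9, a lysosomal amino acid sensor and carrier, read 10.71 on clone II replicate 1 and 10.44 to 10.48 on the other GLI1 arrays, beside 10.58 and 10.88 in parental cells. Neither gene passed the test between groups (log2 -0.33 and -0.21, limma adjusted p = 0.415 and 0.604).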

How the results depend on the processing

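Among the transporter genes, 6 rose and 4 fell. Without the 2 arrays of highest GAPDH ratio 2 rose and 0 fell, and with the filter at the 60th percentile 2 fell, fewer members being tested there. With 1 array left out the counts ran from 1 to 6 risen and from 1 to 4 fallen. Over all probe sets 1087 rose and 1351 fell; the counts were 705 risen without the intensity trend, 145 and 167 without the 2 arrays of highest GAPDH ratio, and 228 to 1377 and 282 to 1653 with 1 array left out. In the related lists 15 rose and 0 fell; 2 rose without the 2 arrays of highest GAPDH ratio, 1 fell with the filter at the 60th percentile or the clone II arrays averaged to 1, and 3 to 16 rose and 0 to 1 fell with 1 array left out. Centring each array on its median moved the median of all tested genes to 0.23, against 0.07, and left 6 risen and 3 fallen transporter genes. Of all calls 1454 were then rises and 944 falls.

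The labels do not say whether replicate numbers mark a shared batch. Deviations of same-numbered arrays correlated at 0.10, 0.32 and 0.07 between groups, all positive. The main fits did not take the numbers as pairs, and a fit with a replicate block is given beside them. Replicate 1 had the higher GAPDH ratio in all 3 groups (7.52 against 1.39 in clone II, 2.09 against 1.45 on the other GLI1 arrays, 3.66 against 1.43 in parental cells), and whether the arrays share a batch was not settled. With the replicate block 5 transporter genes rose and 4 fell, Slc1a5 being lost, and in the clone II comparison 1 gene was called in place of 0 (Slc38a1, log2 -1.46, adjusted p = 0.0397). With 1 array left out that count stayed 0. The difference of Slc1a3 changed sign with median centring (0.076), without the 2 arrays of highest GAPDH ratio (0.0086) and with 1 array left out (-0.28 to 0.023). That of Slc6a20a did so without the 2 arrays of highest GAPDH ratio (-0.19) and with 1 array left out (-0.18 to 0.67), and that of Slc38a1 at its other probe set (0.20). The cause of these changes was not tested.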
